A study of Mus musculus with 15 samples.

Results

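The G2/M and mitosis genes were a listed set of 60 genes that act from the end of DNA replication to cell division. The list was drawn up by gene name, with earlier results of these data known, so that counts over it are a description and not independent evidence of a direction. All 60 were among the 11677 genes of the culture data set. Of these, 59 were also among the 11299 genes of the spheroid region data set, and the counts below are over these 59. *Nek2*, a centrosomal kinase, was not analysed here in the regions and is described for the cultures alone. The samples (15) were 21EM15 cells, an immortalized mouse lens epithelial line used without an engineered allele or drug, and their RNA was sequenced from the 3′ end. Flat cultures in dishes gave the 4 2D samples, and whole spheroids grown for 10 days in non-adherent wells gave the 4 3D samples, each from 60 spheroids. The internal (n = 4) and external (n = 3) samples were regions cut from frozen sections of such spheroids by laser capture microdissection, with 120 spheroids per replicate and an intermediate zone left out. The study removed a further external sample because it differed from the others in a principal component analysis of expression, and that sample was not analysed here. The spread of the external samples, on which the region p-values rest, is therefore that of samples kept for their likeness. All samples came from a single cell line, and neither the labels nor the methods say whether samples were separate passages or whether internal and external samples with the same number came from the same spheroids, so the p-values measure the spread between these samples, which may be technical.

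A cell that leaves G2 needs cyclin-dependent kinase 1, *Cdk1*, bound to a cyclin A or B subunit, whereas the Polo-like and Aurora kinases organise the spindle and the chromosomes. The spindle checkpoint then holds back the anaphase-promoting complex until every kinetochore is attached, after which *Cdc20* lets this ubiquitin ligase degrade cyclin B and securin. Many of these genes are transcribed only late in the cycle, so that in the lens their RNA is found mainly in the epithelium, where cells divide, and is scarce in fiber cells, which have left the cycle. In bulk RNA, fewer cells in G2 and mitosis and less of these RNAs per cell cannot be told apart.

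The counted reads numbered 7305053 to 9362587 per 2D sample, 7727642 to 8364276 per 3D sample, 4044230 to 6086089 per external sample and 4256391 to 11702504 per internal sample. The smallest signal taken as detectable, 3 reads, was worth 0.312 to 0.409 CPM (counts scaled to library size) in 2D, 0.37 to 0.39 in 3D, 0.494 to 0.802 in the external and 0.248 to 0.687 in the internal samples. Of 10 lens markers fixed as a list, 6 were in both data sets (*Pax6*, *Six3*, *Cryab*, *Cdh2*, *Gja1* and *Mab21l1*), whereas *Foxe3*, *Cryaa*, *Cdh1* and *Lim2* were not among the genes analysed here. The list was drawn up for the lens epithelium but is not specific to it, since *Cryab* is also abundant in lens fibers and *Lim2* is a fiber protein. The summed level of the 6 was 944 to 1340 CPM in 2D, 1420 to 1720 in 3D, 838 to 971 in the external and 1050 to 1340 in the internal samples, and was carried by the abundant *Six3* and *Cryab*. The members of this list went in both directions: *Pax6*, *Six3* and *Cryab* had log2 fold changes of 0.69, 0.48 and 0.68 in 3D and 0.65, 0.39 and 0.43 in the internal region, whereas *Cdh2*, *Gja1* and *Mab21l1* had -0.68, -0.44 and -0.55 in 3D and -0.13, -0.23 and -0.34 in the internal region. Of these differences only that of *Pax6* between the regions had an adjusted p under 0.01 (0.00601). Of 8 fibroblast markers, the 7 in the culture data set summed to 115 to 279 CPM in 2D and 551 to 811 in 3D, and *Lum* was not among the genes analysed here. Among them *Dcn* and *Col3a1* were higher in 3D, with log2 fold changes of 5.86 (adjusted p = 0.00287) and 2.49 (adjusted p = 0.00384), as were *Thy1* (2.71, adjusted p = 0.00889) and *Pdgfrb* (1.03, adjusted p = 0.00526). The other 3 had adjusted p-values over 0.01, namely *Col1a2* (-1.47, adjusted p = 0.0574), *Pdgfra* (0.81, adjusted p = 0.219) and *Col1a1* (0.27, adjusted p = 0.671). The 6 in the region data set summed to 279 to 666 CPM in the external and 531 to 613 in the internal samples. These sums hold genes that went in both directions, with *Col3a1* and *Pdgfrb* higher in the internal region (1.59, adjusted p = 3.68e-05, and 0.87, adjusted p = 0.00102) and *Col1a1* lower (-1.56, adjusted p = 0.000206). Of 6 immune markers, *Cd68* alone was in the culture data set, at 0.624 to 1.64 CPM in 2D and 0.383 to 1.17 in 3D. *Cd68* and *Csf1r* were in the region data set, with sums of 0.165 to 10 CPM in the external and 2.06 to 8.2 in the internal samples. The part of these marker levels in the results was not tested.

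The 59 genes together took a smaller share of the reads in 3D than in 2D, and a smaller share in the internal than in the external region. In 2D replicates 1 to 4 they took 0.801, 0.574, 0.816 and 0.966% of the counted reads (mean 0.789 ± 0.162%, SD, n = 4). The 3D replicates had 0.36, 0.316, 0.32 and 0.353% (0.337 ± 0.0225%, n = 4). Every 3D sample lay below every 2D sample, and 2D replicate 2 was the lowest of its group. In the external replicates 1 to 3 the share was 0.243, 0.244 and 0.308% (0.265 ± 0.0372%, n = 3). The internal replicates 1 to 4 had 0.0455, 0.0458, 0.0566 and 0.0517% (0.0499 ± 0.0053%, n = 4), and no internal sample came near an external sample. The 95% Wilson intervals, which cover counting error only, ran from 0.0439 to 0.0472% for internal replicate 1 and from 0.96 to 0.973% for 2D replicate 4.

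**Figure D1:**
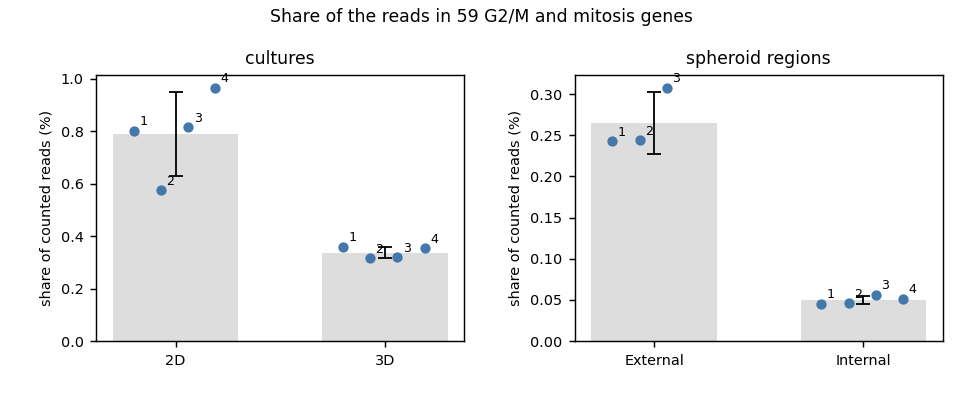
Share of the counted reads (%) that fell in the 59 genes, per sample, with 2D and 3D cultures on the left and external and internal regions on the right. Points are samples labelled by replicate number, bars are group means and whiskers are the SD; the 4 3D samples sit between 0.316 and 0.36% and the 4 internal samples between 0.0455 and 0.0566%, below every sample of the other group of their panel.

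To ask how these genes differ between spheroids and flat cultures, each gene was tested with limma on the deposited log2 CPM, and a gene was called at an adjusted p under 0.01 with an absolute log2 fold change over 1. Of the 59 genes, 35 were called as lower in 3D, or 59.3%, whereas 1.51% of all genes tested were called as lower. None was called as higher, against 2.92% of all genes, and none was higher at an unadjusted p under 0.05. At the adjusted p alone, 41 were lower, against 2.7% of all genes. For 51 of the 59, every 3D sample lay below every 2D sample, which held for 12.0% of all genes. All 59 fold changes were negative, with a median of -1.22 and quartiles of -1.32 and -1.06, beside a median of -0.03 over all genes. They ran from -2.14 for *Gtse1* to -0.43 for *Bub3*, and 46 of them were past -1, so that most of the genes differed by a similar factor. The count of 35 depended on single samples: it was 17 without 3D replicate 3, 19 without 3D replicate 4, 21 without 3D replicate 1 and 23 without 2D replicate 3, and 49 without 2D replicate 2. Calls of 17 of the genes were kept whichever of the 8 samples was left out.

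The same genes were then compared between the regions. Of the 59, 49 were called as lower in the internal region, or 83.1%, against 4.35% of all genes tested. None was called as higher, against 3.27% of all genes, and none was higher at an unadjusted p under 0.05. At the adjusted p alone, 50 were lower, against 7.88% of all genes. In 54 of them every internal sample lay below every external sample, which held for 15.4% of all genes. All 59 fold changes were again negative, with a median of -3.36 (the same with *Bub1*, which had no internal reads, at its bound) and quartiles of -4.05 and -2.64, beside a median of 0.04 over all genes. They ran from -5.49 for *Ccna2* to -0.17 for *Ckap5*, with 34 of them past -3 and 16 past -4. The latter count includes *Bub1* at its fitted value of -4.3, whereas its bound of 13.3-fold is short of 16-fold. The calls of 37 of the 49 genes were kept whichever of the 7 samples was left out, and the count stayed between 41 and 50 in these fits. Without the variance trend in the limma fit, 30 genes were called. In 13 genes at least 1 internal sample had 0 reads, so that depth limits how low their level can be shown to be and their fitted fold changes depend on the prior count.

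**Figure D2:**
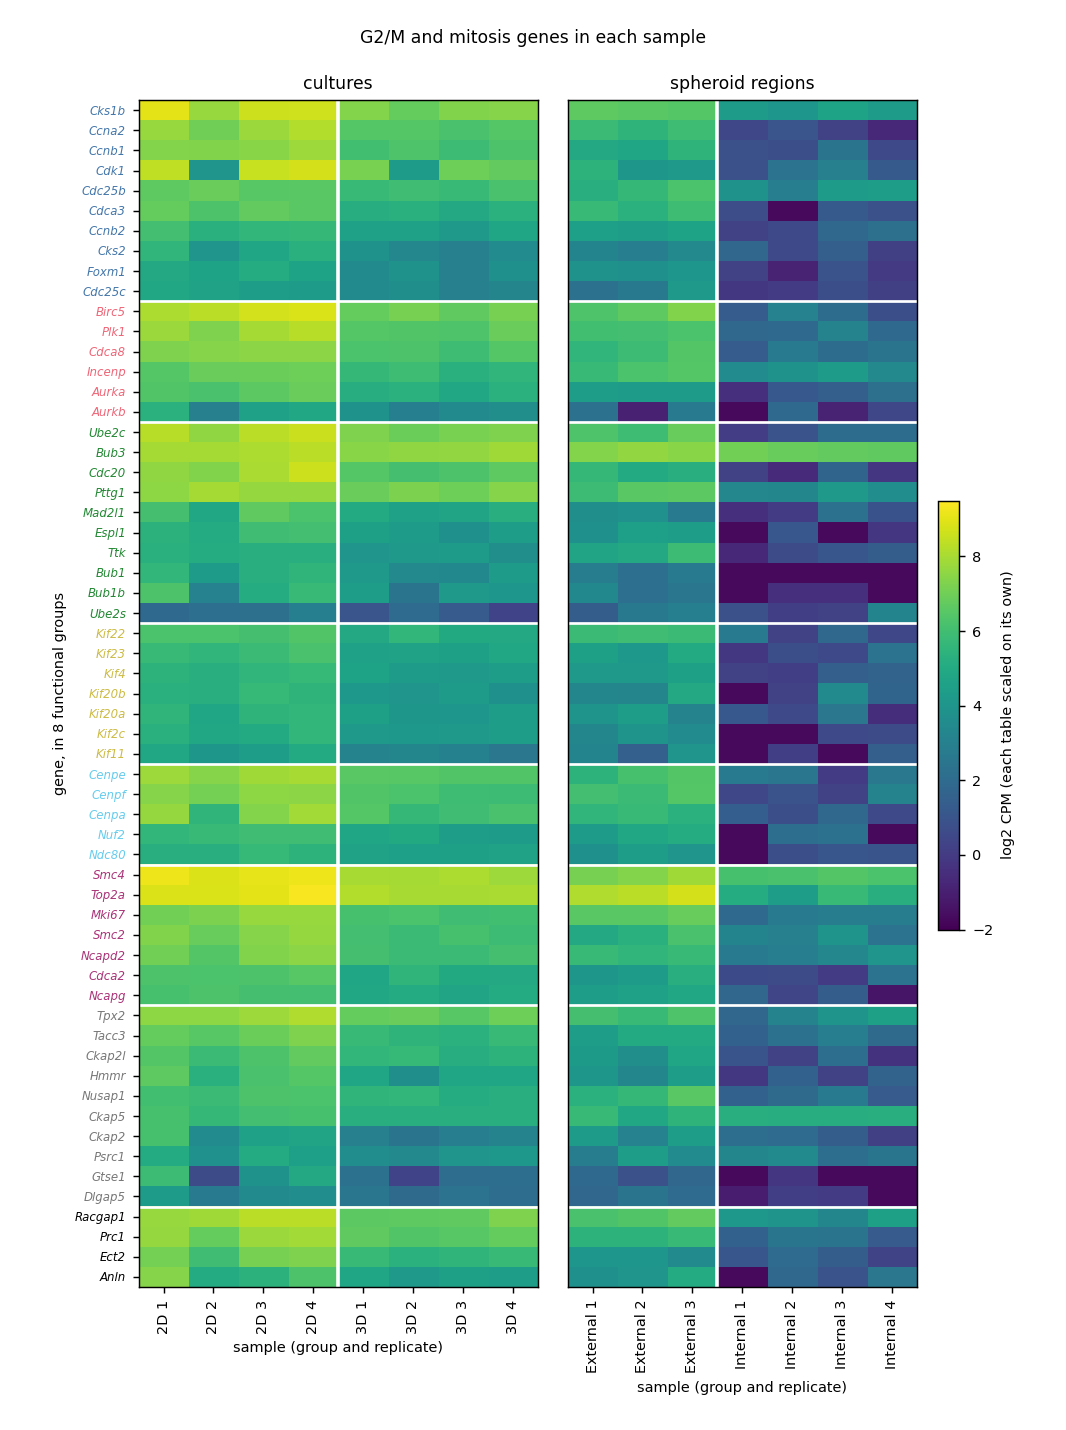
Level of each of the 59 genes (rows, in 8 functional groups set apart by white lines and label colours) in each sample (columns), in log2 CPM, with cultures on the left and spheroid regions on the right, each data set scaled on its own. The 2D columns are brighter than the 3D columns and the external columns brighter than the internal columns in nearly every row, whereas *Bub3*, *Smc4* and *Ckap5* keep much of their level in the internal samples.

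The sequences upstream of the genes were read next, since genes of this phase are known to share promoter elements. These are the cell cycle genes homology region (CHR), with the letters TTTGAA, and the CCAAT box, which is bound by the factor NF-Y. RefSeq windows on GRCm38.p6, from 250 bases before to 50 after the annotated start, were at hand for 49 of the 59 genes. Windows for *Ccna2*, *Cdc25c*, *Foxm1*, *Aurkb*, *Incenp*, *Kif20a*, *Smc4*, *Cdca2*, *Tpx2* and *Dlgap5* were not used here. TTTGAA was found on either strand in 35 of the 49 windows, or 71.4%, against 11.6% of the 9315 windows of genes in the culture data set and 18.1% of all 27025 windows. Among the lists nearest in function described further on, it was in 32 of 83 windows of other G2/M genes, or 38.6%, and in 8 of 45 of S phase genes, or 17.8%. CCAAT was found on either strand in 38 of the 49, or 77.6%, against 39.7% and 37.9%, and in 46 of the 83 and 27 of the 45 windows of these lists. Both were present in 31 of the 49, or 63.3%, against 4.9% and 7.1%, 22.9% of the other G2/M genes and 11.1% of the S phase genes, and neither in 7 of the 49. The motifs were searched independently and can share a base at their ends, and a match is a description of the sequence only. The following 7 windows of 150 bases, from 100 before to 50 after the start, were picked after the values had been seen. *Ccnb2*, *Cdc20*, *Plk1* and *Ube2c* were called as lower in both comparisons, *Bub3* and *Ckap5* were among those that changed least, and *Birc5* was called in both comparisons with neither motif in its window. Each is written in the direction of its gene, and capitals mark TTTGAA and CCAAT, or TTCAAA and ATTGG where the match is on the opposite strand.
*Ccnb2* (chr9:70421505-70421654, minus strand): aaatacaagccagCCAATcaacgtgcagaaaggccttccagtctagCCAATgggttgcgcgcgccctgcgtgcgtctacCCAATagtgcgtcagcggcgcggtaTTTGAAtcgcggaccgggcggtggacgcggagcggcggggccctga
*Cdc20* (chr4:118437294-118437443, minus strand): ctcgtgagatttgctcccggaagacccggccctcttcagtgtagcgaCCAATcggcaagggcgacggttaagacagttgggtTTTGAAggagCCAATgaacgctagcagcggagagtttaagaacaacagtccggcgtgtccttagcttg
*Plk1* (chr7:122159335-122159484, plus strand): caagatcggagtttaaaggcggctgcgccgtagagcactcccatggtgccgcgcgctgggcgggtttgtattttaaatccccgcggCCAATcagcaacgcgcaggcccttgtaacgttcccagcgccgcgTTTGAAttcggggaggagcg
*Ube2c* (chr2:164769829-164769978, plus strand): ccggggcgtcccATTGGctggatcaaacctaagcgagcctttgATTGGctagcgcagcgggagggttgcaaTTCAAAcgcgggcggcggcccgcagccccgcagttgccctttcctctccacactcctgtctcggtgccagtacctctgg
*Bub3* (chr7:131560270-131560419, plus strand): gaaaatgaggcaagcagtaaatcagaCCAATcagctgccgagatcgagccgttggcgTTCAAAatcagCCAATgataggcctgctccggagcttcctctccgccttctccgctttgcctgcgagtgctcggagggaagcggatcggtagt
*Ckap5* (chr2:91526662-91526811, plus strand): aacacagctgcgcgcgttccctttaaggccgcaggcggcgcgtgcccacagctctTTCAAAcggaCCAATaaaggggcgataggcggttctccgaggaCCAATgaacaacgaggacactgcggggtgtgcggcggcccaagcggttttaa
*Birc5* (chr11:117849137-117849286, plus strand): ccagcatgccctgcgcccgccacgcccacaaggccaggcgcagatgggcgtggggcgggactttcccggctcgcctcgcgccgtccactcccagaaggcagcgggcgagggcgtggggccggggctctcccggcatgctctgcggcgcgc
The first 6 of these windows hold both motifs, those of *Bub3* and *Ckap5* included. Over the 49 genes, the 35 with TTTGAA had a median log2 fold change of -1.22 in 3D against 2D, and the 14 without it had -1.25. In the internal against the external region these medians were -3.48 and -2.81. With and without CCAAT (38 and 11 genes), the medians were -1.26 and -1.17 in the cultures and -3.45 and -3.36 in the regions. None of these differences was tested.

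Cyclins, *Cdk1* and their regulators comprised 10 of the genes, of which 7 were called as lower in 3D and 9 as lower in the internal region. Their median log2 fold changes were -1.27 and -3.07. *Ccna2* (chr3:36564865-36572150), which encodes cyclin A2, the partner of *Cdk2* and *Cdk1*, had 7.71, 7.01, 7.78 and 8.17 log2 CPM in 2D replicates 1 to 4 and 6.48, 6.46, 6.21 and 6.46 in the 3D replicates. It fell by 1.26 ± 0.21 on the log2 scale in 3D (SE; adjusted p = 0.00382), with no overlap between the groups. Gene positions here and below are on GRCm38, and fold changes are given ± SE. In the external samples its level was 5.85, 5.50 and 5.93 log2 CPM, and in the internal samples 0.44, 1.02, 0.29 and -0.66. These internal levels rested on 7, 15, 4 and 4 reads, against 207 to 348 in the external samples. Its log2 fold change of -5.49 ± 0.51 (adjusted p = 4.86e-08) had the largest size among the 59 genes in the region comparison, although that of *Cdca3* (-5.39) was larger in the fits without internal replicate 1, 3 or 4. *Ccnb1* (chr13:100778650-100786570), the main mitotic cyclin, had 7.37, 7.31, 7.45 and 7.83 log2 CPM in 2D and 6.04, 6.35, 5.88 and 6.31 in 3D. The groups did not overlap and the log2 fold change was -1.34 ± 0.16 (adjusted p = 0.000819). Its external levels were 4.94, 4.76 and 5.47 log2 CPM and its internal levels 0.85, 0.76, 2.42 and 0.55. Internal replicate 3 was the highest of its group, yet far below the external samples, and the log2 fold change was -3.91 ± 0.51 (adjusted p = 4.94e-06).

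*Cdk1* (chr10:69335146-69352938), the kinase that these cyclins activate, was not called in the cultures. It had 8.38, 4.01, 8.55 and 8.78 log2 CPM in 2D and 7.17, 4.36, 6.97 and 6.74 in 3D. Replicate 2 was far below the others in both groups, with 116 reads in 2D and 164 in 3D, so that the groups overlapped. The log2 fold change was -1.12 ± 1.0 (adjusted p = 0.462), and without both samples numbered 2 it was -1.61 ± 0.16 (adjusted p = 0.000803). As *Cdk1* was far below the others in both of these samples, leaving them out must narrow its spread, and the second value is a description. Without 1 sample *Cdk1* was called in no fit, and its value ran from -2.26 without 2D replicate 2 (adjusted p = 0.0158) to -0.47 without 3D replicate 2 (adjusted p = 0.783). In the regions its levels were 5.42, 4.07 and 4.23 log2 CPM in the external and 0.85, 2.40, 3.02 and 1.24 in the internal samples, without overlap. It fell by 2.7 ± 0.52 (adjusted p = 0.000537), a call that was lost without external replicate 1 (adjusted p = 0.0145). *Cks1b* (chr3:89415472-89418383), a small Cdk-binding subunit, had 9.03, 7.72, 8.64 and 8.65 log2 CPM in 2D and 7.37, 6.78, 7.31 and 7.43 in 3D. Replicate 2 was again the lowest of both groups, and the log2 fold change was -1.29 ± 0.26 (adjusted p = 0.00808). Its external levels of 6.64, 6.54 and 6.45 log2 CPM and internal levels of 4.33, 4.04, 4.65 and 4.30 were tight within groups, with a log2 fold change of -2.21 ± 0.22 (adjusted p = 1.9e-07). In the cultures the call of *Ccna2* was lost in 5 of the 8 fits that left out a sample (those without 2D replicate 3 and without each 3D sample, adjusted p up to 0.0181). That of *Cks1b* was lost in 7 of them, all but the fit without 2D replicate 2 (adjusted p up to 0.0277). Of the remaining members of the group, *Ccnb2*, *Cdca3* (a trigger of mitotic entry), *Cdc25c* (a phosphatase that activates *Cdk1*) and *Foxm1* (a transcription factor of G2/M genes) were called in both comparisons. Of these, *Cdca3* kept both calls whichever sample was left out. The culture call of *Ccnb2* was lost in 7 of the 8 fits, all but that without 2D replicate 2 (adjusted p up to 0.0185, and a log2 fold change of -0.98 without 2D replicate 1). Those of *Cdc25c* and *Foxm1* were lost in 5 of the 8, without 2D replicate 3 and 3D replicates 1, 3 and 4 in both genes, and without 2D replicate 1 in *Cdc25c* or 2D replicate 4 in *Foxm1* (adjusted p up to 0.019 and 0.0161). The region call of *Cdc25c* was lost in 4 of 7 fits, without external replicate 2 or 3 or internal replicate 1 or 2 (adjusted p up to 0.0978). *Cdc25b*, also a Cdk1-activating phosphatase, had -0.71 in the cultures and was called in the regions alone, at -1.84. *Cks2*, a paralog of *Cks1b*, was called in neither, with -1.48 (adjusted p = 0.0137) and -2.17 (adjusted p = 0.0135). In the cultures *Cks2* was called without 2D replicate 2 (-1.79, adjusted p = 0.00143) and in none of the other 7 fits (adjusted p up to 0.0478).

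Mitotic kinases and the chromosomal passenger complex comprised 6 genes, and 5 of them were called in each comparison, with medians of -1.25 and -3.53. *Birc5* (chr11:117849251-117855743), which encodes the passenger subunit survivin, had 8.10, 8.32, 8.72 and 8.87 log2 CPM in 2D and 6.77, 7.16, 6.67 and 7.14 in 3D. The groups lay well apart, with a log2 fold change of -1.56 ± 0.19 (adjusted p = 0.000982). In the external samples it had 6.34, 6.65 and 7.30 log2 CPM and in the internal samples 1.35, 3.09, 2.07 and 0.77. These did not overlap, and it fell by 4.94 ± 0.43 (adjusted p = 1.96e-08). *Plk1* (chr7:122159439-122169873), the Polo-like kinase, had 7.75, 7.28, 7.95 and 8.26 log2 CPM in 2D and 6.45, 6.39, 6.34 and 6.85 in 3D. Its log2 fold change was -1.30 ± 0.20 (adjusted p = 0.00275), a call lost without 3D replicate 1 (adjusted p = 0.0104) and without 3D replicate 3 (adjusted p = 0.0136). External levels of *Plk1* were 6.0, 6.06 and 6.25 log2 CPM, and internal levels were 1.85, 1.91, 3.13 and 1.92, with internal replicate 3 above the other 3. The log2 fold change there was -3.90 ± 0.36 (adjusted p = 5.32e-08). *Incenp* and *Cdca8*, further subunits of the passenger complex, and the spindle pole kinase *Aurka* were called in both comparisons. *Aurkb*, the kinase of the passenger complex, was called in neither, at -0.95 ± 0.44 (adjusted p = 0.152) and -1.45 ± 1.09 (adjusted p = 0.376), and its groups overlapped in both. It was called in the cultures without 2D replicate 2 (-1.43, adjusted p = 0.00465). In the other 7 fits that left out a culture sample it was not called, with -0.65 (adjusted p = 0.306) without 2D replicate 1. In the regions it had 28, 1 and 25 reads in the external and 0, 30, 1 and 13 in the internal samples, so that its log2 fold change there ran from -2.62 without external replicate 2 to -0.74 without external replicate 3. *Nek2* had 255, 23, 44 and 96 reads in 2D and 20, 8, 14 and 16 in 3D. Its groups did not overlap, but with a log2 fold change of -2.08 ± 0.58 it did not pass the threshold (adjusted p = 0.0305). *Nek2* was called without 2D replicate 2 (-2.52, adjusted p = 0.00782) and in none of the other 7 fits that left out a sample (adjusted p up to 0.0798).

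The spindle checkpoint, anaphase promotion and separase group held 10 genes, with 4 called in the cultures and 8 in the regions, and medians of -1.16 and -4.03. *Cdc20* (chr4:118432901-118437352), the activator of the anaphase-promoting complex, had 7.57, 7.30, 8.06 and 8.63 log2 CPM in 2D and 6.47, 6.11, 6.29 and 6.66 in 3D. The groups were apart and the log2 fold change was -1.51 ± 0.26 (adjusted p = 0.00392). Its levels were 5.65, 5.04 and 5.20 log2 CPM in the external samples and 0.27, -0.62, 1.71 and -0.18 in the internal samples, the latter from 3 to 13 reads. The fall was 5.0 ± 0.57 (adjusted p = 1.03e-06). *Ube2c* (chr2:164769898-164778822), a ubiquitin-conjugating enzyme of the same complex, had 8.28, 7.57, 8.33 and 8.60 log2 CPM in 2D and 7.27, 6.92, 7.18 and 7.29 in 3D. No 3D sample reached the 2D samples, and the log2 fold change was -1.03 ± 0.20 (adjusted p = 0.0075). With 6.34, 5.91 and 6.82 log2 CPM in the external and 0.07, 0.94, 2.07 and 2.07 in the internal samples, it fell by 5.07 ± 0.46 between the regions (adjusted p = 3.96e-08). In the cultures the call of *Cdc20* was lost in 5 of the 8 fits that left out a sample (without 2D replicate 3 and without each 3D sample, adjusted p up to 0.0181). The call of *Ube2c* was lost in 7 of them, all but the fit without 2D replicate 2 (adjusted p up to 0.028).

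*Bub3* (chr7:131560222-131571895), a checkpoint protein that also acts in interphase, changed far less than its partners. It had 7.96, 7.93, 8.08 and 8.29 log2 CPM in 2D and 7.47, 7.59, 7.63 and 7.84 in 3D. Every 3D sample was below every 2D sample, yet the log2 fold change of -0.43 ± 0.13 (adjusted p = 0.041) was the smallest of the 59 in the cultures. Its external levels were 7.37, 7.63 and 7.45 log2 CPM and its internal levels 7.04, 6.83, 6.74 and 6.71. These did not overlap either, and the log2 fold change of -0.65 ± 0.15 (adjusted p = 0.00354) passed on the p-value but not on the size. *Bub1*, a checkpoint kinase, had 41, 20 and 23 reads in the external samples and 0 in each of the 4 internal samples. Against a floor of 3 reads in each internal sample it was at least 13.3-fold lower there. Its region call was lost without any one of the 3 external samples (adjusted p up to 0.0323). Having passed the authors' filter on low CPM through the external samples alone, it could differ in that direction only. *Ttk*, a checkpoint kinase, and *Espl1*, the protease separase that cuts cohesin, were called in both comparisons. The culture call of *Espl1* was kept only without 2D replicate 1 or 2 and lost in the other 6 fits (adjusted p up to 0.0215). *Bub1b*, *Mad2l1* (both checkpoint proteins) and *Pttg1* (securin, the inhibitor of separase) were called in the regions alone. The region call of *Bub1b* was lost without any one of the external samples (adjusted p up to 0.0399), and that of *Mad2l1* without any one of these or without internal replicate 1 or 2 (adjusted p up to 0.0517), whereas that of *Pttg1* was kept in all 7 fits. *Ube2s*, a further conjugating enzyme of the anaphase-promoting complex, was called in neither, with -1.17 ± 0.41 (adjusted p = 0.0715) and -1.20 ± 0.77 (adjusted p = 0.287). Its internal reads were 10, 7, 4 and 107, and without internal replicate 4, the sample with 107, the region value was -1.89 (adjusted p = 0.0887).

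Kinesins, the motors that move chromosomes and spindle microtubules, comprised 7 genes, with 6 called in the cultures and 5 in the regions and medians of -1.12 and -3.42. *Kif22* (chr7:127027729-127042471), a motor that binds chromosome arms, had 6.25, 6.24, 6.11 and 6.38 log2 CPM in 2D and 4.95, 5.62, 4.98 and 4.96 in 3D. Replicate 2 was the highest 3D sample, still below the 2D samples, and the log2 fold change was -1.12 ± 0.17 (adjusted p = 0.00271). That call was lost without 3D replicate 1, 3 or 4 (adjusted p = 0.0106, 0.0132 and 0.0136). *Kif22* levels in the external samples were 5.84, 5.98 and 5.85 log2 CPM, with an SD of 0.08, and in the internal samples 2.72, 0.29, 1.90 and 0.46. The fall was 4.54 ± 0.50 (adjusted p = 5.73e-07). *Kif23* (chr9:61915905-61946774), the motor of the centralspindlin complex, had 5.80, 5.55, 5.85 and 6.22 log2 CPM in 2D and 4.58, 4.62, 4.53 and 4.84 in 3D. The groups did not overlap and the log2 fold change was -1.21 ± 0.17 (adjusted p = 0.00174). Its external levels of 4.54, 4.15 and 5.03 log2 CPM were all above the internal levels of -0.15, 0.76, 0.53 and 2.37, with a log2 fold change of -3.69 ± 0.58 (adjusted p = 5.68e-05). *Kif2c*, which depolymerises microtubules, had -0.99 in the cultures, just inside the fold threshold, and was called in the regions at -4.18, though not without external replicate 2 (adjusted p = 0.0114). *Kif11*, which pushes the spindle poles apart, and *Kif20b* were called in the cultures but not in the regions, where their adjusted p-values were 0.0108 and 0.0157. That contrast turned on single samples: *Kif11* was called in the regions without internal replicate 4 (-4.01, adjusted p = 0.00392) and *Kif20b* without internal replicate 3 (-3.73, adjusted p = 0.00143). The culture call of *Kif11* was lost without 2D replicate 4, 3D replicate 3 or 3D replicate 4 (adjusted p up to 0.0136), and that of *Kif20b* in no fit. *Kif20a* and *Kif4* were called in both comparisons. The culture call of *Kif20a* was lost in all fits but that without 2D replicate 2 (adjusted p up to 0.034) and its region call without external replicate 1 or 2 (adjusted p up to 0.0355), and the culture call of *Kif4* was lost without 3D replicate 3 or 4 (adjusted p up to 0.0119).

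The centromere and kinetochore genes (5) were called in 3 cases in the cultures and in all 5 in the regions, with medians of -1.20 and -4.41. *Cenpe* (chr3:135212537-135273611), a kinetochore motor, had 7.80, 7.41, 7.85 and 8.01 log2 CPM in 2D and 6.57, 6.51, 6.39 and 6.36 in 3D. Both groups were tight and apart, with a log2 fold change of -1.31 ± 0.14 (adjusted p = 0.000705). The external levels were 5.44, 6.14 and 6.44 log2 CPM and the internal levels 2.72, 2.52, -0.01 and 2.61, where internal replicate 3 had 3 reads and the others 42 to 70. *Cenpe* fell by 4.05 ± 0.51 there (adjusted p = 3.49e-06). *Cenpf* (chr1:189640606-189688086), a large kinetochore and nuclear matrix protein, had 7.4, 7.10, 7.55 and 7.50 log2 CPM in 2D and 6.40, 6.25, 5.95 and 5.87 in 3D, for a log2 fold change of -1.27 ± 0.16 (adjusted p = 0.00115). With 6.06, 5.86 and 6.46 log2 CPM in the external and 0.44, 0.94, 0.29 and 3.14 in the internal samples, it fell by 4.93 ± 0.53 (adjusted p = 4.58e-07). Internal replicate 4 was above the other internal samples for *Cenpf*, and no internal sample reached an external sample for either gene. *Nuf2*, of the microtubule-binding *Ndc80* complex, was called in both comparisons, with the culture call lost without 3D replicate 3 or 4 (adjusted p up to 0.0116). Its partner *Ndc80* and *Cenpa*, the histone H3 variant of centromeres, were called in the regions alone.

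Among the 7 condensin and mitotic chromosome genes, 6 were called in the cultures and all 7 in the regions, with medians of -1.22 and -3.26. *Top2a* (chr11:98992943-99024189), the topoisomerase that untangles sister chromatids, had 8.89, 8.85, 9.03 and 9.41 log2 CPM in 2D and 8.19, 8.0, 7.98 and 8.03 in 3D. The groups were clearly apart, and its log2 fold change of -0.99 ± 0.14 (adjusted p = 0.00184) missed the call on size alone. *Top2a* was called without 2D replicate 1, 2D replicate 2 or 3D replicate 1 (-1.04, -1.06 and -1.04). In the external samples *Top2a* had 8.12, 8.29 and 8.77 log2 CPM and in the internal samples 5.12, 4.41, 5.74 and 5.27, a log2 fold change of -3.26 ± 0.23 (adjusted p = 1.16e-09). *Mki67* (chr7:135689784-135716361), which encodes the proliferation antigen KI67 that coats mitotic chromosomes, had 7.05, 7.25, 7.72 and 7.71 log2 CPM in 2D and 6.16, 6.23, 5.97 and 6.03 in 3D. It fell by 1.34 ± 0.17 (adjusted p = 0.00119), without overlap. The external levels of *Mki67* were 6.57, 6.56 and 6.84 log2 CPM and the internal levels 1.91, 2.68, 2.89 and 2.84, with a log2 fold change of -4.08 ± 0.31 (adjusted p = 1.89e-09).

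*Smc4* (chr3:69004738-69034623), a core subunit of condensin, was lower by nearly the same factor in both comparisons. It had 9.21, 8.90, 9.07 and 9.20 log2 CPM in 2D and 8.0, 7.96, 8.10 and 7.80 in 3D, a log2 fold change of -1.13 ± 0.12 (adjusted p = 0.000685). Its external levels were 7.12, 7.38 and 7.85 log2 CPM and its internal levels 6.14, 6.22, 6.41 and 6.26, a log2 fold change of -1.19 ± 0.18 (adjusted p = 2.99e-05). The groups did not overlap in either case, and the region call was lost without external replicate 3, at -0.99. Its partner *Smc2* fell by 1.32 ± 0.18 in the cultures (adjusted p = 0.00158) and by 2.35 ± 0.37 in the regions (adjusted p = 6.03e-05). *Ncapd2* and *Ncapg*, regulatory subunits of condensin, and *Cdca2*, which targets a phosphatase to chromatin, were called in both comparisons. For *Ncapd2*, the culture call was lost in 7 of the 8 fits, all but that without 2D replicate 2 (adjusted p up to 0.0283, and a log2 fold change of -0.96 without 2D replicate 4).

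Spindle assembly and microtubule-associated proteins (10 genes) had the fewest calls for their number in the cultures, 2 of 10 (*Hmmr* and *Tacc3*), and 6 of 10 in the regions, with medians of -1.13 and -2.73. That rank depended on 2D replicate 2, without which *Tpx2*, *Ckap2*, *Ckap2l*, *Dlgap5* and *Gtse1* were called in the cultures too and the group was no longer the lowest. For *Hmmr*, a microtubule-binding protein, the culture call was lost in 7 of the 8 fits, all but that without 2D replicate 2 (adjusted p up to 0.0274), and its region call without external replicate 3 (adjusted p = 0.0131). *Tpx2* (chr2:152847964-152895321), which activates *Aurka* on the spindle, had 7.55, 7.53, 7.80 and 8.12 log2 CPM in 2D and 6.79, 6.89, 6.5 and 6.96 in 3D. The groups did not overlap, and the log2 fold change of -0.97 ± 0.16 (adjusted p = 0.00376) was short of the fold threshold. *Tpx2* was called without 2D replicate 1, 2D replicate 2 or 3D replicate 2 (adjusted p up to 0.00911). In the external samples it had 6.13, 5.80 and 6.32 log2 CPM and in the internal samples 1.79, 3.15, 3.97 and 4.55, and it fell by 2.72 ± 0.43 (adjusted p = 5.33e-05). *Tacc3* (chr5:33658128-33678995), which binds spindle fibres together with *Ckap5*, had 6.80, 6.5, 6.93 and 7.29 log2 CPM in 2D and 5.78, 5.48, 5.34 and 5.74 in 3D. The groups were apart and the log2 fold change was -1.30 ± 0.18 (adjusted p = 0.00174). With 4.43, 5.02 and 5.02 log2 CPM in the external and 1.59, 2.30, 2.93 and 1.98 in the internal samples, *Tacc3* fell by 2.62 ± 0.42 (adjusted p = 6.03e-05).

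*Gtse1* (chr15:85859745-85876573), a microtubule-binding protein named for its expression in G2 and S phase, had the fold change of largest size in the cultures and was not called. It had 5.90, 0.68, 3.91 and 4.93 log2 CPM in 2D and 2.31, 0.30, 2.09 and 2.15 in 3D. Replicate 2 was the lowest in both groups, with 10 and 8 reads, and the log2 fold change was -2.14 ± 0.95 (adjusted p = 0.139). Without 2D replicate 2 alone, *Gtse1* was called as lower in 3D (-3.2, adjusted p = 0.00342). At the other end, its value was -1.46 without 2D replicate 1, and it was not the largest of the 59 in the fits without 2D replicate 1, 2D replicate 4 or 3D replicate 2. In the regions it was close to the floor, with 21, 7 and 12 reads in the external samples and 0, 5, 0 and 0 in the internal samples, and was not called (-2.87 ± 1.11, adjusted p = 0.0685). *Ckap5*, a microtubule polymerase used in interphase as well, had 5.74, 4.89 and 5.50 log2 CPM in the external and 5.24, 5.17, 5.16 and 5.24 in the internal samples. The internal samples lay between the external samples, and its log2 fold change was -0.17 ± 0.23 (adjusted p = 0.643), and 0.01 without external replicate 1. In the cultures it was -0.79 ± 0.15 (adjusted p = 0.00604), without overlap. *Ckap2*, *Ckap2l* and *Nusap1*, which bind or bundle microtubules, were called in the regions alone, that of *Ckap2* being lost without external replicate 1 or 3 (adjusted p up to 0.0296). *Dlgap5* and *Psrc1*, also spindle proteins, were called in neither comparison.

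The cytokinesis genes (4) were called in 2 cases in the cultures and in all 4 in the regions, with medians of -1.26 and -3.01. *Racgap1* (chr15:99620496-99651656), the partner of *Kif23* in centralspindlin, had 7.74, 7.85, 8.29 and 8.32 log2 CPM in 2D and 6.61, 6.64, 6.68 and 7.27 in 3D. Its log2 fold change was -1.25 ± 0.19 (adjusted p = 0.00257), a call lost without 3D replicate 1 (adjusted p = 0.0102) and without 3D replicate 3 (adjusted p = 0.0129). External levels were 6.19, 6.36 and 6.73 log2 CPM and internal levels 4.15, 3.94, 3.28 and 4.55, so that *Racgap1* kept more of its level than most members, with a log2 fold change of -2.44 ± 0.28 (adjusted p = 9e-07). *Prc1* (chr7:80294450-80316259), which bundles the microtubules of the spindle midzone, had 7.67, 6.80, 7.76 and 7.90 log2 CPM in 2D and 6.67, 6.38, 6.53 and 6.77 in 3D. Its 2D replicate 2 was only just above the highest 3D sample, and the log2 fold change was -0.94 ± 0.22 (adjusted p = 0.016). Without that sample *Prc1* was called, at -1.19 (adjusted p = 0.000535), and in none of the other 7 fits (adjusted p up to 0.0503). Its external levels of 5.42, 5.45 and 5.73 log2 CPM and internal levels of 1.59, 2.46, 2.42 and 1.29 were far apart, and it fell by 3.6 ± 0.40 (adjusted p = 5.79e-07). *Ect2*, which activates the small GTPase of the cleavage furrow, was called in both comparisons, and the furrow protein *Anln* in the regions alone. The culture call of *Ect2* was lost in 7 of the 8 fits, all but that without 2D replicate 2 (adjusted p up to 0.0357), and its region call without external replicate 1 or 2 (adjusted p up to 0.0131). The region call of *Anln* was lost without external replicate 2 or 3 (adjusted p up to 0.0289).

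**Figure D3:**
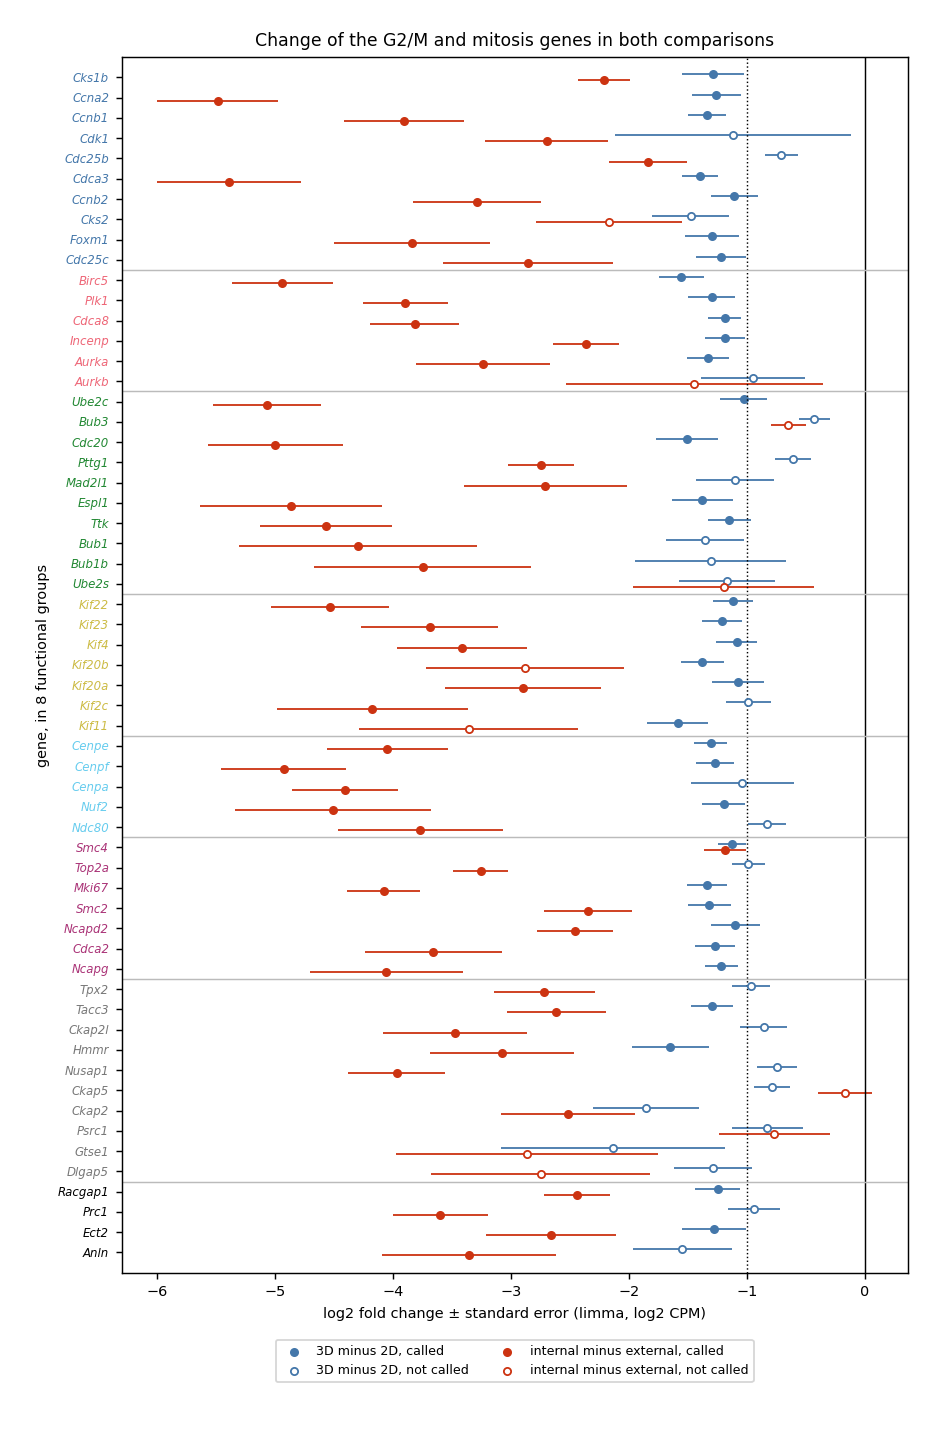
Log2 fold change of each of the 59 genes (limma on log2 CPM, whiskers are the SE), grouped by function, for 3D minus 2D in blue and internal minus external in red. Filled points passed an adjusted p under 0.01 and a fold change past the dotted line at -1, which 35 blue and 49 red points did; the blue points cluster near -1.22, whereas the red points spread from -5.49 to -0.17.

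Set side by side, the fold changes of the 2 comparisons differed in size and in spread. The fall was larger in the regions for 57 of the 59 genes, with *Ckap5* and *Psrc1* as exceptions, and the median of the region fold change minus the culture fold change was -2.17. The SD of the fold changes over the 59 genes was 0.29 in the cultures and 1.19 in the regions. Across these genes the 2 sets of fold changes had a Pearson r of 0.29, a description only, since the genes share libraries and are not independent replicates. Calls were made in both comparisons for 33 genes and in neither for 8, namely *Cks2*, *Aurkb*, *Bub3*, *Ube2s*, *Ckap5*, *Dlgap5*, *Gtse1* and *Psrc1*. The data sets were normalized separately and the RNA was extracted with different kits, and the difference in size between the comparisons was not tested.

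**Figure D4:**
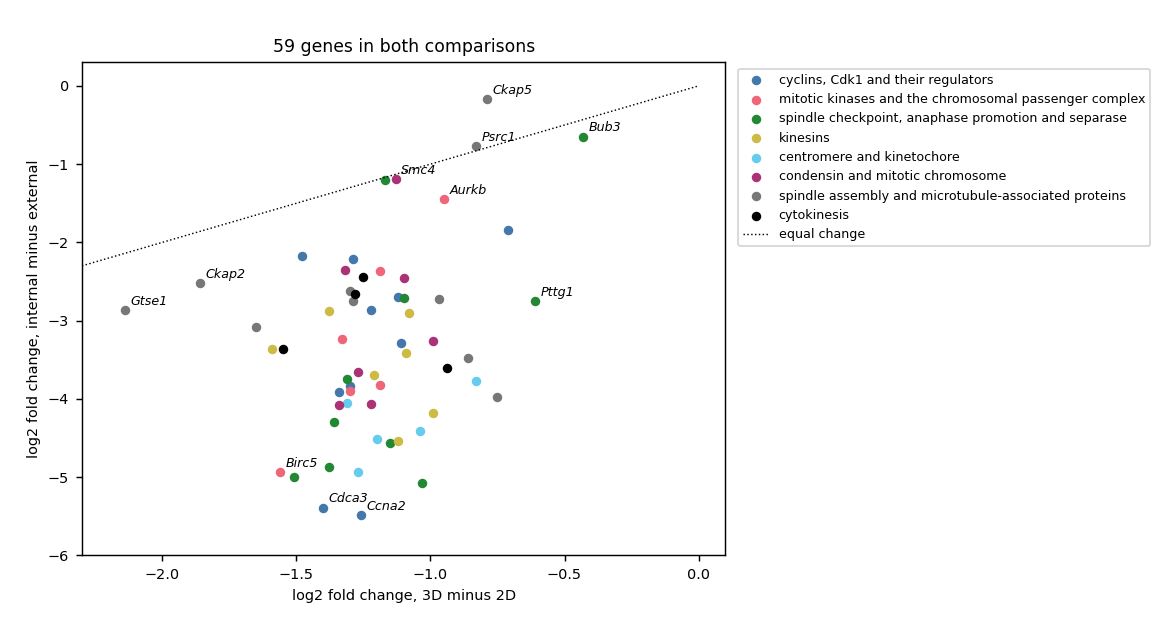
Log2 fold change of the 59 genes in 3D minus 2D (horizontal) and in internal minus external (vertical), each point a gene coloured by functional group, with the dotted line marking equal change in both. Most points form a vertical cloud near -1.22 on the horizontal axis that reaches down to -5.49, and only *Ckap5* and *Psrc1* lie above the line.

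The culture samples numbered 2 stood apart for a group of these genes. For 47 of the 59 genes, replicate 2 was the lowest 2D sample, and for 32 replicate 4 was the highest. These ranks were not counted over all genes, so they cannot show a trait particular to the members. In 10 genes (*Cdk1*, *Cks1b*, *Aurkb*, *Bub1*, *Bub1b*, *Cenpa*, *Ckap2*, *Hmmr*, *Gtse1* and *Psrc1*), or 16.9%, replicate 2 was at least 0.5 log2 CPM below the median of its group's other samples in both 2D and 3D. That held for 9.37% of all 11677 genes, and for *Nek2* as well. No member met the same criterion for the samples numbered 1, 3 or 4, which 1.4, 2.42 and 2.47% of all genes did. In the opposite direction, only *Cks2* met the step, for the samples numbered 1, as did 4.17% of all genes. The differences in 2D and 3D were -4.54 and -2.61 for *Cdk1*, -4.25 and -1.86 for *Gtse1*, -2.7 and -1.77 for *Bub1b*, and -2.14 and -0.52 for *Cenpa*. In *Birc5*, *Cdca8* and *Ncapg* neither sample numbered 2 was the lowest of its group, and in *Plk1* that of 2D alone was. Without 2D replicate 2 alone, 14 further members were called as lower in 3D and no call was lost (*Cks2*, *Aurkb*, *Bub1*, *Mad2l1*, *Kif2c*, *Cenpa*, *Top2a*, *Tpx2*, *Ckap2*, *Ckap2l*, *Dlgap5*, *Gtse1*, *Prc1* and *Anln*, adjusted p up to 0.00689). As that sample was the lowest of 2D for 47 of the 59 genes, leaving it out must raise their 2D mean, and this gain is a description. Since the 10 genes were picked for low values in the samples numbered 2, leaving these samples out must narrow the spread of the genes, and the counts of calls that follow are a description. Without both samples numbered 2, 9 of the 10 genes were called as lower in 3D, against 2 with all samples, and *Psrc1* was not (-0.96 ± 0.23, adjusted p = 0.0195). The other 49 members had 40 calls in place of 33, and all genes had 276 calls in place of 176. *Gtse1* then had -2.73 ± 0.43 (adjusted p = 0.00349) and *Bub1b* -1.52 ± 0.27 (adjusted p = 0.00564). In the regions, leaving out both samples numbered 2 took the count of members called as lower from 49 to 40, with no call gained. The calls of *Cdc25c*, *Bub1*, *Bub1b*, *Mad2l1*, *Kif20a*, *Kif2c*, *Ndc80*, *Anln* and *Ect2* were lost (adjusted p = 0.0107 to 0.0945). Neither the labels nor the methods give a day or batch for these numbers, and their part in the result was not tested.

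**Figure D5:**
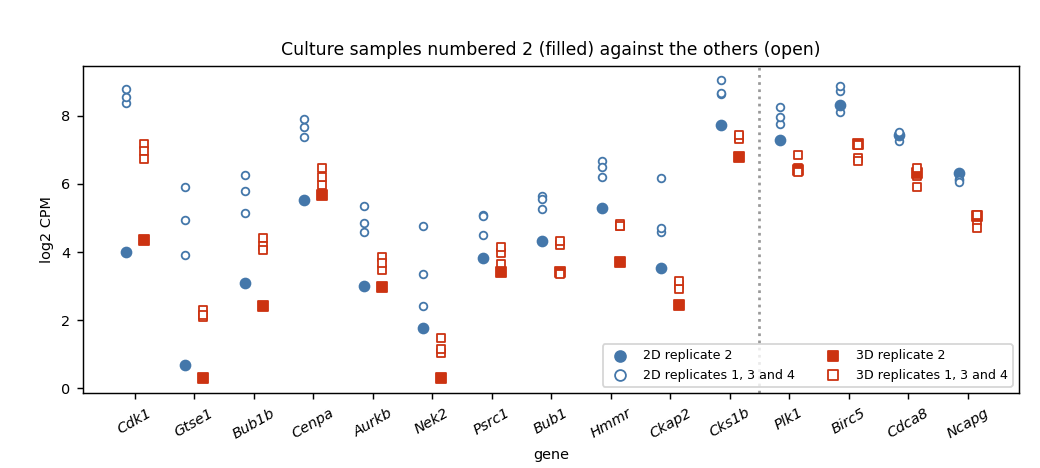
Log2 CPM in the 8 culture samples for the 11 genes that were low in both samples numbered 2 (left of the dotted line) and for 4 other members chosen for contrast (right), with 2D as circles and 3D as squares and replicate 2 filled. For *Cdk1* the filled symbols sit at 4.01 and 4.36, against 6.74 to 8.78 for the open symbols, whereas for *Ncapg* no filled symbol is the lowest of its group.

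Genes outside the 60 were taken from lists of other G2/M and mitosis genes (103 listed) and of DNA replication and S phase genes (56 listed). Of the other G2/M genes, 23 of 102 were called as lower in 3D, none as higher, with a median of -0.92. In the regions 32 of 97 were called as lower, none as higher, with a median of -1.39. The called genes with the changes of largest size in 3D were *Spdl1* (-1.98), *Cep55* (-1.86), *Sgo2a* (-1.64) and *Trip13* (-1.39), and in the internal region *Ska1* (-5.15), *Spc24* (-4.45), *Cenpm* (-4.29) and *Cenph* (-4.28), of which the latter 4 act at kinetochores. These 4 had 58 to 182 reads in the external samples and 0 to 37 in the internal samples. By function, the 16 genes of spindle checkpoint and anaphase promotion, which include the core subunits of the anaphase-promoting complex, had medians of -0.24 and -0.18 with 1 call in each comparison, and the 10 of condensin and cohesin had -0.63 and -0.50. The 5 further kinesins had -1.18 and -3.53, with 4 calls in each comparison. Of the S phase genes, 16 of 55 were called as lower in 3D (median -0.95) and 33 of 52 in the internal region (median -1.86), and none as higher. Those with the changes of largest size were *E2f8* (-1.90), *Orc1* (-1.70), *Gins1* (-1.49) and *Uhrf1* (-1.44) in 3D and *Ccne2* (-6.06), *Tk1* (-5.38), *Cdc6* (-4.44) and *Mcm10* (-4.38) in the internal region. The internal reads behind the latter 4 were 0, 0, 5 and 0 for *Ccne2*, 10, 0, 24 and 57 for *Tk1*, 3, 3, 0 and 0 for *Cdc6* and 5, 0, 14 and 0 for *Mcm10*, so that the size and order of these fitted values depend on the prior count. The share of reads in the S phase list was 0.372 to 0.523% in 2D, 0.195 to 0.237% in 3D, 0.239 to 0.26% in the external and 0.0868 to 0.093% in the internal samples.

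Some of the values above could include reads from sequence that a gene shares with other genes. In 18 of the 60 genes, a stretch of 50 nt within the last 300 nt of a transcript was also found in the transcripts of another gene, and reads from such stretches could be left out of the unique alignments or split. Among these, *Plk1* shares sequence with the pseudogene *Plk-ps1*, *Ccnb1* with 5 genes that include *Ccnb1-ps*, *Cks1b* with *Cks1brt* and *Gm6340*, and *Cdc20* with *Gm7856* and *AC132235.3*. The others are *Anln*, *Bub3*, *Cdc25c*, *Cenpf*, *Ckap2*, *Dlgap5*, *Kif23*, *Mad2l1*, *Ndc80*, *Nuf2*, *Prc1*, *Racgap1*, *Tpx2* and *Ube2c*. Some of these share such stretches with many genes, as *Kif23* with 175, *Racgap1* with 155, *Dlgap5* with 147, *Cdc25c* with 142 and *Anln* with 125. The 3′ end of *Foxm1* overlaps that of *Tex52* and *Gm44596* on the same strand. The levels of all these genes are uncertain to that extent.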

How the data were processed

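RNA was measured by QuantSeq 3′ end sequencing, in which reads come from the end of a transcript and do not scale with its length. Per the labels, RNA of the 2D and 3D samples was extracted with a Nucleospin kit and that of the microdissected regions with a PicoPure kit. The authors trimmed the reads, kept sense reads over 20 nt, mapped them to GRCm38.p6 (STAR 2.7.8a), counted those with a unique position per gene (featureCounts 1.6.0), removed genes with low CPM (0.2) and tested genes with edgeR. The annotation release is not given in the sources used here.

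The authors deposited log2 CPM per sample in 2 tables, of cultures (11677 genes) and regions (11299 genes), with a prior averaging 2.0 reads and library sizes scaled within each table, so that tests were made within a table. They also deposited fold changes, p-values and adjusted p-values of their own comparisons, which were not used. Whole reads were recovered for 100.0% of the values (tolerance 0.01 reads). The totals ranged from 4044230 to 11702504 reads per sample. PCR copies cannot be told apart, so the floor of 3 reads and the Wilson intervals cover counting error only.

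Samples were grouped as labelled. The log2 CPM were compared by limma 3.58.1 (R 4.3.3; empirical Bayes with a variance trend, two-sided, p-values adjusted by Benjamini-Hochberg across each whole table), after the fit had been tested on simulated data. Calls needed an adjusted p under 0.01 together with a log2 fold change past 1 in size. A count model was not the main test because the unit is log2 CPM, and limma's voom on the recovered reads was an alternative. The members and lists were chosen with earlier results of these data known. Values in every sample are given for the 2 members with the highest mean culture level in each functional group, for the member with the largest change in each comparison, and for *Mki67*, *Cdk1*, *Ccnb1*, *Ccna2* and *Cdc20*, which gave 21 genes. Genes of other lists are at most the 4 called ones with the largest change. *Bub1*, *Ckap5*, *Smc2*, the promoters shown and further members with values were picked after their values were seen. Alternatives were other variance priors, voom, other scalings, a pseudocount of 1 CPM, a filter on low values, other thresholds, leaving out each sample, the replicate number as a block and leaving out both samples numbered 2. Gene positions and transcripts were from GENCODE vM21 on GRCm38 and promoters from RefSeq on GRCm38.p6. Python 3.11.15, pandas 2.3.3, scipy 1.17.1 and matplotlib 3.10.9 were used for the rest.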

Additional observations from a re-analysis of the deposited data

Results flagged for a closer look

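In groups of 4 samples, a sample was singled out when its gap to the nearest other sample was too large a part of the range of its group by Dixon's test at 95%. Of 179 tests over the listed genes, 14 met this, or 7.82%, where chance gives about 1 in 20. The sample numbered 2 was the lowest in 3 genes in 2D, namely *Cdk1* (4.01 log2 CPM, against 8.38 to 8.78 in the others), *Kif20a* (4.76, against 5.49 to 5.63) and *Ect2* (5.96, against 7.11 to 7.29). In 3D it was the lowest for *Cdk1* (4.36, against 6.74 to 7.17), *Hmmr* (3.71, against 4.76 to 4.82) and *Gtse1* (0.30, against 2.09 to 2.31), and the highest for *Kif22* (5.62, against 4.95 to 4.98). Elsewhere in 3D, *Ccna2* was low in replicate 3 (6.21, against 6.46 to 6.48) and *Racgap1* high in replicate 4 (7.27, against 6.61 to 6.68). Among the internal samples, replicate 3 was high for *Ccnb1* (2.42, against 0.55 to 0.85) and *Plk1* (3.13, against 1.85 to 1.92) and low for *Cenpe* (-0.01, against 2.52 to 2.72). *Ndc80* was low in internal replicate 1, where it had no reads (-1.72, against 0.76 to 1.09). *Gtse1* had reads in internal replicate 2 alone (-0.18, against -1.72 in the other 3). As those 3 were tied at 0 reads, the gap was the whole range by construction, and the chance of 1 in 20 does not apply.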

How the results depend on the processing

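No member was called as higher in any alternative of either comparison. The count of members lower in 3D, 35 with all samples, was between 17 and 49 in the fits that left out a sample, and the median log2 fold change of the members between -1.36 and -1.15. In the regions the count of 49 was between 41 and 50 in these fits, and the median of -3.36 between -3.49 and -2.98. Without the variance trend, 30 members were called in the regions and 25 in the cultures, and the cause was not tested. The region median was -2.77 with log2(CPM + 1), a pseudocount that by its construction shrinks changes of low genes. Only *Ckap5* changed direction, in the regions, where its log2 fold change was between -0.42 and 0.01 in the fits that left out a sample, the latter without external replicate 1 (adjusted p = 0.987).

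Replicate numbers are shared between the groups, and same-numbered samples were compared by correlating their deviations from the group means over all genes. The correlations were 0.227, 0.503, 0.066 and 0.005 in the cultures, in the order of the numbers. In the regions they were -0.044, -0.065 and -0.063. At 0.503, the culture samples numbered 2 deviated together over all genes, and the cause was not tested. The main fit did not treat samples as pairs. With the replicate number as a block, 40 members were called as lower in 3D and 42 in the internal region, with medians of -1.22 and -3.42. The block added the calls of *Cks2*, *Bub1*, *Bub1b*, *Ckap2* and *Anln* in the cultures (adjusted p up to 0.00633) and of *Kif20b* in the regions (adjusted p = 0.00669). *Nek2*, outside the 59, was called with it as well (adjusted p = 0.00716). With it the region calls of *Cdk1*, *Cdc25c*, *Bub1*, *Bub1b*, *Mad2l1*, *Kif20a*, *Ckap2* and *Ect2* were not made (adjusted p = 0.0103 to 0.029). Scaling changed the split over all genes in the regions, from 491 lower and 370 higher to 393 and 473 with unscaled library sizes (median of all genes 0.15) and 567 and 315 with median-centred samples, whereas the members called as lower were 49 and 50. Depth limits the internal levels of the 13 members with a sample at 0 reads.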
